A study of Mus musculus with 6 samples.

Results

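Mitochondrial ribosomal protein genes were examined in RNA-seq libraries of differentiated mouse preadipocytes, and were taken as every gene of the count table whose symbol begins with Mrpl or Mrps followed by a number. This gave 78 of 49671 listed genes. Of these, 51 encode proteins of the large subunit and 26 proteins of the small subunit; the remaining gene, Mrps36, encodes a component of the 2-oxoglutarate dehydrogenase complex. The 5 rows of annotated pseudogenes were left out and held 0 to 4 counts in any library.

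All 6 libraries came from the same cell line, made from inguinal white fat of C57BL/6 mice aged 3 months that carried floxed Tcf7l2 (Tcf7l2 F/F). The cells had been sorted as CD34, Sca1 and CD29 positive and CD31, CD45 and Ter-119 negative, immortalised with SV40 large T antigen, and infected with a retrovirus carrying CreERT2, a Cre recombinase switched on by 4-hydroxytamoxifen. The control group (3 libraries, genotype label wild type) received ethanol and the knockout group (3 libraries, genotype label Tcf7l2 Knock out cells) received 4-hydroxytamoxifen, in each case for 24 h and 2 days before differentiation. Both groups then received dexamethasone, isobutylmethylxanthine and insulin and were harvested at day 8. The labels add an agent at 5 nM, whose code number rises by 1 from each library to the next and is therefore lower in every control than in every knockout library. Deletion, 4-hydroxytamoxifen and this numbering cannot be told apart. No label ties the libraries of a group to separate cultures; p-values therefore measure spread among these 6 libraries alone, and that spread may be technical.

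The mitochondrial ribosome translates the few messenger RNAs encoded by mitochondrial DNA, all of which give membrane subunits of the respiratory chain and ATP synthase. Its ribosomal RNAs, mt-Rnr1 in the small and mt-Rnr2 in the large subunit, are transcribed in the organelle, whereas its proteins are encoded in the nucleus and imported. Some of these proteins descend from bacterial ribosomal proteins and others are found only in mitochondrial ribosomes. Mitochondria increase in number when preadipocytes become adipocytes, and supply the fat cell with ATP and with precursors for lipid synthesis.

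Tcf7l2, the targeted gene, measured 7.71, 6.13 and 9.11 CPM (counts made comparable between libraries by TMM scaling) in controls and 5.65, 6.85 and 5.86 CPM in knockout libraries. The ranges overlapped, and the log2 fold change of -0.32 (SE 0.14) was not called (edgeR adjusted p = 0.125). Which exons Cre removes is not labelled, and reads from the rest of the gene do not check the deletion. Total counts were 26621293 to 33484764 per library. The labelled cell type was checked against its markers: 7 of 8 adipocyte markers were called higher in knockout, and their summed level was 7969 ± 142 CPM in controls and 11487 ± 1079 CPM in knockout libraries (mean ± SD, n = 3 each). The preadipocyte markers summed to 3497 ± 111 and 3520 ± 63.6 CPM, with 0 of 6 called by edgeR, 1 higher and 2 lower at an unadjusted p under 0.05, and 1 higher and 1 lower called by each of DESeq2 and limma-voom. Of the blood cell markers, Adgre1, Cd3e and Hba-a1 were listed at 0 in every library and Ptprc averaged at most 0.0236 CPM; Csf1r (2.85 against 2.75 CPM) and Cd68 (1.44 against 1.75 CPM) were detected at low levels and not called. Of 5 endothelial markers, Kdr was called higher (13.6 against 17.7 CPM) and Tek was not called (10.2 against 9.35 CPM), while Pecam1, Cdh5 and Emcn were at or below 0.159 CPM on average.

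The promoters of 4 members are shown first. Mrpl12 had the largest rise, and the promoter of Mrpl22 held a pair of the motifs searched. Mrpl34 was called higher under every refit, and Mrpl52 was the only member called lower. Each sequence is the 250 bases before the RefSeq transcription start, on the plus strand of GRCm38.p6, 5′ to 3′, with motif matches in capitals. Mrpl12 is from chr11:120484387-120484636, Mrpl22 from chr11:58171414-58171663, Mrpl34 from chr8:71464676-71464925 and Mrpl52 from chr14:54426659-54426908.
Mrpl12: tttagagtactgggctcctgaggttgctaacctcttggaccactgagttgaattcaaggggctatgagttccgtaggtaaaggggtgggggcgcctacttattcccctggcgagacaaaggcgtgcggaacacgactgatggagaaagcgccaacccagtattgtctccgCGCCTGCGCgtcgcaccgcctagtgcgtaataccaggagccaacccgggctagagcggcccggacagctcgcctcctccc
Mrpl22: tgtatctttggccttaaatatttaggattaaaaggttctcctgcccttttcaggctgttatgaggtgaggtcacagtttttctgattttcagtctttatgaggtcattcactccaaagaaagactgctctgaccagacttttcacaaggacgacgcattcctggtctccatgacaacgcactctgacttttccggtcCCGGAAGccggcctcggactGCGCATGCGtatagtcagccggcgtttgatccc
Mrpl34: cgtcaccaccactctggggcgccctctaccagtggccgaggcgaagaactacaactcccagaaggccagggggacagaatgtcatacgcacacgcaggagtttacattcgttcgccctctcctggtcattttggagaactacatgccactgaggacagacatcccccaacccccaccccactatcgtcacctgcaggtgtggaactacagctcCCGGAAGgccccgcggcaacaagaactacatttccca
Mrpl52: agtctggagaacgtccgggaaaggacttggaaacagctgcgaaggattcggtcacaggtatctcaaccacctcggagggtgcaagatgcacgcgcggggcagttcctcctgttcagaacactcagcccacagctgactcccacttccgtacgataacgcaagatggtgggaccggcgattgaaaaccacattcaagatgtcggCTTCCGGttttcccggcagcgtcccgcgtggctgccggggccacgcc
The letters searched on both strands were GCGCANGCG, the core of the sites of NRF1, a factor known for activating nuclear genes of mitochondrial proteins; CCGGAAG, a core of ETS factor sites such as those of GABPA; and AAGATGGCG, a core of YY1 sites. The capitals in Mrpl12 are an NRF1 core on the minus strand, 80 to 72 bases before the start. Those in Mrpl22 are an ETS core at 53 to 47 and an NRF1 core at 33 to 25 bases before the start. Mrpl34 held an ETS core 37 to 31 bases before the start, and Mrpl52 an ETS core on the minus strand at 47 to 41 bases. All 4 promoters shown thus held a match, whereas those of Mrps6 and Mrpl1, also called higher under every refit, held none.

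RefSeq promoter windows were matched by symbol to 69 of the 78 members, giving 75 windows because some genes have several. The NRF1 core was present in 13 member windows (17.3%, exact 95% interval 9.57% to 27.8%), compared with 5.16% of all 32851 windows and 7.08% of the 21263 windows of protein-coding genes. The ETS core was present in 18 (24%, interval 14.9% to 35.3%), compared with 6.91% and 8.98%. The YY1 core was present in 2 (2.67%, interval 0.325% to 9.3%), compared with 0.606% and 0.72%. Windows of the same gene can overlap, so they are not independent. In total 31 members held at least 1 of the 3 cores. The matches were not limited to members called higher: their 24 windows held the NRF1 core 6 times and the ETS core 6 times, and the other 51 windows 7 and 12 times. The YY1 core was in 0 and 2 of these windows. A match of letters is a description of the sequence, and binding was not measured.

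Mitochondrial ribosomal protein transcripts were, in the main, slightly higher in the knockout libraries. Of 77 tested members 26 were called higher (33.8%), 1 was called lower (1.3%) and 50 were not called, at an edgeR adjusted p under 0.05 over all 14946 tested genes. Across all tested genes, 11.9% were called higher and 10.5% lower. The median log2 fold change of the tested members was 0.12, against -0.0017 over all genes, and 66 of 77 members (85.7%) had a fitted value above 0, against 49.7% of all genes. Members were mostly of middling abundance, and the comparison was therefore repeated among genes with an average log2 CPM of 4 to 7, a range chosen after the data were seen: 25 of 73 members were called higher and 1 lower there, where 12.4% of 6634 genes were called higher and 13.9% lower. In 37 members every knockout library was above every control library and in 4 every knockout library was below; the corresponding shares of all tested genes were 18.5% and 19.3%.

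The changes were small. Called rises ran from 0.15 to 0.55 on the log2 scale with a median of 0.24, and 23 of the 26 were under 1.25-fold. The middle 50% of tested members lay between 0.053 and 0.21. Standard errors were small too, with a median of 0.062 and a range of 0.048 to 0.20, and counts per tested member and library ran from 30 to 3438 with a median of 1073. Among the 50 members not called, 45 had a 95% interval lying within a 1.25-fold change in either direction. The count of calls depended on single libraries. It was 16 without control 1, 12 without control 2 and 15 without control 3. The share of all tested genes called higher was then 8.07%, 8.6% and 10.6%. The count was 18 without knockout 1, 29 without knockout 2 and 11 without knockout 3, beside shares of 11.1%, 12.1% and 8.21%. None of the 26 changed sign in any of the 14 refits, and Mrpl1, Mrpl12, Mrpl34, Mrpl51, Mrps6 and Mrps35 were called in each of them.

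**Figure D1:**
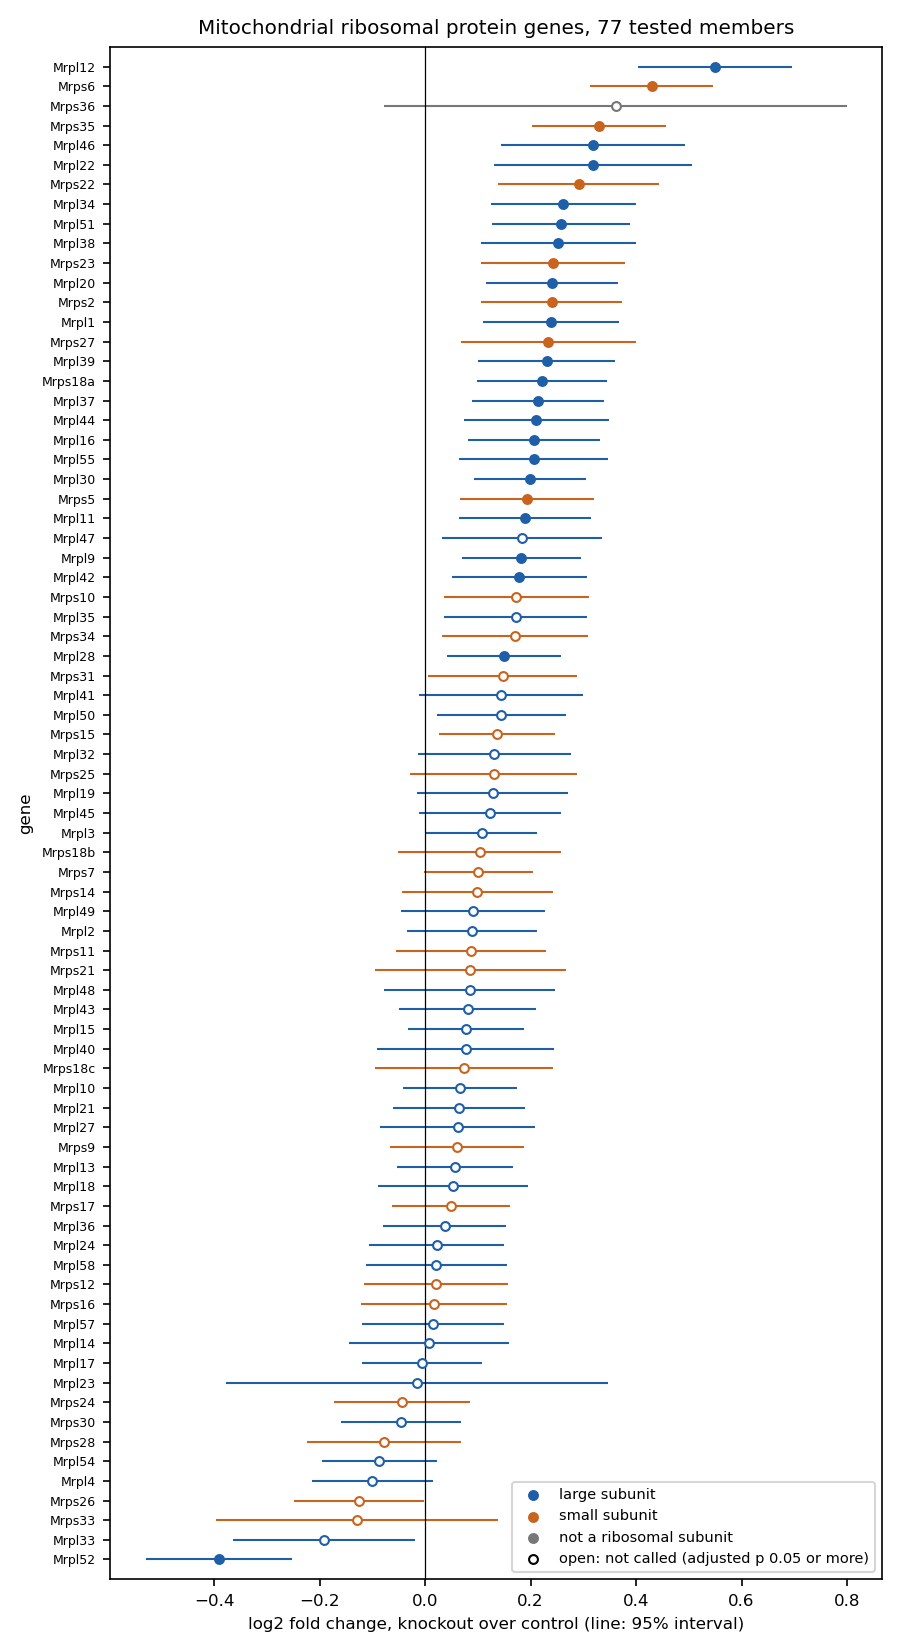
Log2 fold change, knockout over control, of each of the 77 tested members (points) with its 95% interval (lines), ordered by value and coloured by subunit; filled points were called at an edgeR adjusted p under 0.05. Most points lie to the right of 0, with Mrpl12 at 0.55 and Mrps6 at 0.43 at the top and Mrpl52 at -0.39 at the bottom.

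The large subunit, of RNA and protein, holds the peptidyl transferase centre, the exit tunnel, the stalk and the central protuberance. In this subunit 19 of 50 tested members were called higher and 1 lower, with a median log2 fold change of 0.13 and a range of -0.39 to 0.55. The small subunit, also of RNA and protein, holds the messenger RNA and the decoding site. There 7 of 26 were called higher and 0 lower, with a median of 0.10 and a range of -0.13 to 0.43. By descent, 14 of 45 members with a bacterial homologue were called higher and 0 lower (median 0.099), and 12 of 31 tested members classed as mitochondria-specific were called higher and 1 lower (median 0.14). Mrps18a and Mrps18b are counted in the latter class as in the current naming of mitochondrial ribosomal proteins, although they are relatives of bacterial S18. Where 0 were called lower by edgeR, 1 small-subunit member and 1 member with a bacterial homologue were lower at an unadjusted p under 0.05, and DESeq2 and limma-voom also called 0. Differences between these classes were not tested.

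The stalk of the large subunit recruits translation factors. Mrpl12, its flexible protein and the homologue of bacterial L7/L12, is also known to bind the mitochondrial RNA polymerase; the gene lies at chr11:120484613-120489065. It measured 28.5, 28.4 and 30.2 CPM in controls and 41.4, 46.4 and 39.5 CPM in knockout libraries. Every knockout library exceeded every control, and the log2 fold change of 0.55 (SE 0.068, 95% interval 0.40 to 0.70, edgeR adjusted p = 5.85e-05) was the largest among members. The proteins that anchor the stalk had smaller fitted changes. Mrpl11, at the stalk base, had 37.8, 35.4 and 36.5 CPM in controls and 42.8, 39.6 and 42.8 CPM in knockout libraries and was called higher (log2 fold change 0.19, SE 0.058, adjusted p = 0.0311), a call kept in 8 of 14 refits and lost without any library but knockout 2. Mrpl10, which carries the Mrpl12 copies, had 65.8, 68.1 and 68.1 CPM in controls and 72.0, 72.1 and 67.2 CPM in knockout libraries. Its groups overlapped and it was not called (0.066, 95% interval -0.042 to 0.17). The intervals of Mrpl12 and Mrpl10 do not overlap, though the difference between these genes was not itself tested.

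The central protuberance of the large subunit contains Mrpl38, Mrpl46 and Mrpl52, all found only in mitochondrial ribosomes. These members did not move in the same direction. They were named because they were among the largest called rises or were the only called fall. The proteins of this region were not taken as a set, so these values do not describe it as a whole. Mrpl46 measured 18.2, 17.2 and 14.8 CPM in controls and 20.8, 20.4 and 21.6 CPM in knockout libraries, and rose (log2 fold change 0.32, SE 0.081, adjusted p = 0.012). Mrpl38 rose from 29.9, 26.1 and 29.6 CPM to 35.6, 34.2 and 32.3 CPM (0.25, SE 0.068, adjusted p = 0.0168). Mrpl52, at chr14:54426909-54429756, fell: it measured 32.3, 28.9 and 30.3 CPM in controls and 23.3, 23.8 and 22.6 CPM in knockout libraries. Its lowest control lay well above its highest knockout library, and the log2 fold change of -0.39 (SE 0.065, 95% interval -0.53 to -0.25, adjusted p = 0.000603) was called under all 14 refits. The call of Mrpl46 was lost without knockout 3 (0.30) and that of Mrpl38 without control 2 (0.19) or knockout 1 (0.22). Mrpl18, a protein of the same region that has a bacterial homologue, had overlapping groups at 55.6, 58.7 and 53.7 CPM against 64.0, 54.4 and 55.9 CPM and was not called (0.053, 95% interval -0.088 to 0.19).

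**Figure D2:**
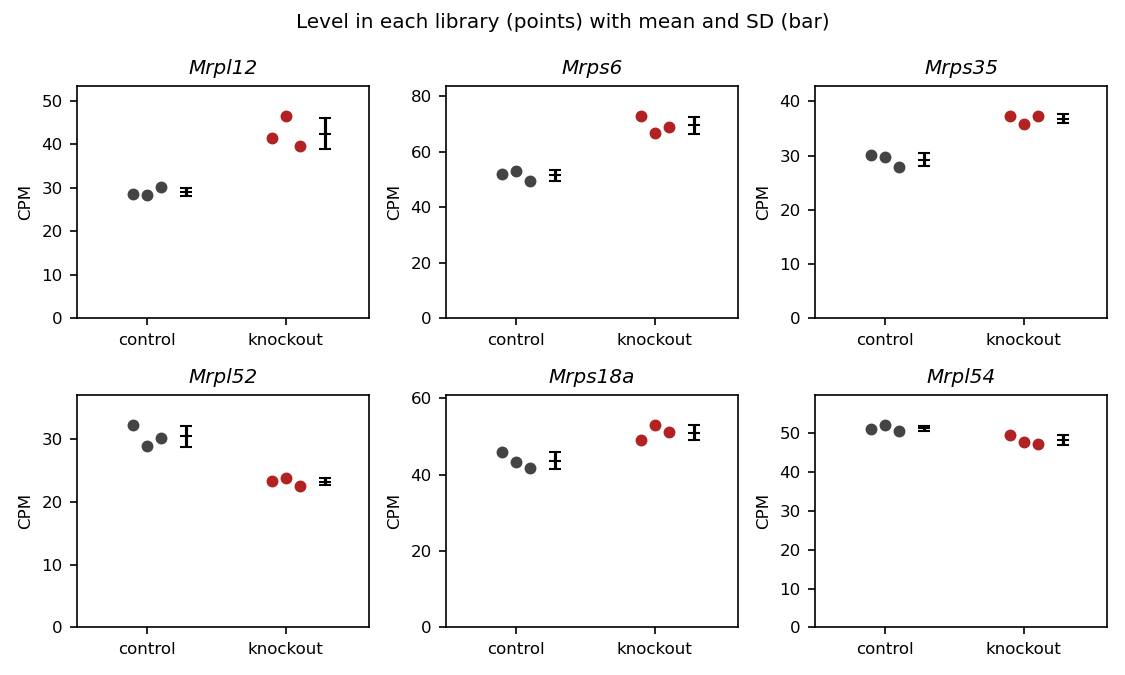
CPM in each control and knockout library (points) with the mean and SD of each group (bars) for 6 members; each axis starts at 0. Mrpl12, Mrps6, Mrps35 and Mrps18a are higher in every knockout library, Mrpl52 is lower in every knockout library, and Mrpl54 differs by less (51.3 against 48.3 CPM).

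Of the other large-subunit members with the largest rises, Mrpl22, whose protein lines the exit tunnel, measured 8.19, 9.07 and 8.29 CPM in controls and 10.7, 10.8 and 10.3 CPM in knockout libraries (log2 fold change 0.32, SE 0.087, adjusted p = 0.0182). Mrpl34, a small protein with a bacterial homologue, rose from 34.0, 32.4 and 30.2 CPM to 40.9, 37.2 and 37.9 CPM (0.26, SE 0.064). Mrpl51, found only in mitochondrial ribosomes, rose from 57.9, 55.9 and 52.7 CPM to 70.8, 61.7 and 66.7 CPM (0.26, SE 0.061). In all 3 genes the groups did not overlap, but the call of Mrpl22 was lost without control 1 (0.29) or control 3 (0.30). Mrpl33, a homologue of bacterial L33, had the second lowest fold change of the subunit (-0.19, SE 0.079): it measured 74.8, 76.1 and 62.0 CPM in controls and 66.2, 57.7 and 62.7 CPM in knockout libraries. Its groups overlapped through control 3, and it was not called (adjusted p = 0.106), whereas without control 3 it was called lower with a log2 fold change of -0.28. Mrpl33 was singled out after its values were seen.

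In the small subunit the largest rise was that of Mrps6, the homologue of bacterial S6, at chr16:92058270-92112227. It measured 52.0, 53.2 and 49.3 CPM in controls and 72.7, 66.5 and 68.9 CPM in knockout libraries, without overlap (log2 fold change 0.43, SE 0.054, adjusted p = 6.91e-05). Mrps6 shares 10.4% of its exonic bases, on the same strand, with Slc5a3, a myo-inositol transporter gene. Slc5a3 rose by a similar amount (177 CPM in controls against 242 CPM in knockout libraries, 0.45, SE 0.049). Its CPM was higher than that of Mrps6, but its mean level per length was lower (19.2 against 39.4 CPM per kb). Mrps6 also shares 19.9%, on the same strand, with Gm49711, a gene not analysed here. How reads in shared exons were assigned is not given in the sources used here, so the value of Mrps6 is uncertain, and the part of the shared exons in it was not tested. Mrps35, found only in mitochondrial ribosomes, rose from 30.1, 29.7 and 27.8 CPM to 37.2, 35.8 and 37.2 CPM (0.33, SE 0.059, adjusted p = 0.00109). Mrps22, a protein whose mutation is known to cause human mitochondrial disease, rose from 38.2, 37.0 and 31.9 CPM to 44.9, 41.3 and 45.2 CPM (0.29, SE 0.071). Mrps23 rose from 44.1, 42.6 and 41.9 CPM to 54.0, 46.3 and 52.0 CPM (0.24, SE 0.063). Both lost their calls without knockout 3, with log2 fold changes of 0.27 and 0.22, and Mrps23 also without control 2 (0.23) or knockout 1 (0.20).

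Bacterial S18 has 3 mammalian mitochondrial descendants, of which Mrps18a sits in the large subunit and Mrps18b and Mrps18c in the small. Mrps18a measured 46.0, 43.4 and 41.7 CPM in controls and 48.9, 52.9 and 51.1 CPM in knockout libraries and was called higher (log2 fold change 0.22, SE 0.057, adjusted p = 0.0135), a call that was lost without control 2, control 3 or knockout 3. Mrps18b (18.2, 19.0 and 18.2 against 18.4, 20.7 and 20.3 CPM) and Mrps18c (24.2 ± 2.18 against 25.6 ± 1.67 CPM) had overlapping groups and were not called. Their 95% intervals, -0.052 to 0.26 and -0.095 to 0.24, include the value of Mrps18a, so a difference among the paralogues was not shown. Mrps30, a large-subunit protein despite its name, measured 51.6, 48.3 and 48.0 CPM against 47.4, 48.3 and 47.6 CPM and was not called (-0.046, SE 0.053).

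Levels were compared between members only per length, as CPM per kb of the union of annotated exons. The median over tested members was 13.9 CPM per kb, and the 10th and 90th percentiles were 5.08 and 39.1, a 7.71-fold spread in transcripts of proteins that the assembled ribosome mostly holds in single copies. The highest mean levels over the 6 libraries were those of Mrpl54 (60.4 CPM per kb), Mrpl34 (58.3), Mrpl20 (45.5), Mrpl28 (42.2) and Mrpl18 (40.8). Over the 77 genes, levels per kb in control and in knockout libraries had a Spearman rank correlation of 0.99, and the level and the log2 fold change had one of -0.024; genes share libraries and are not independent replicates. Mrpl54, the most abundant per length, measured 51.2, 52.1 and 50.6 CPM in controls and 49.7, 47.9 and 47.3 CPM in knockout libraries, a log2 fold change of -0.087 (SE 0.051) that was not called although the groups did not overlap. Mrpl20, whose protein has a bacterial homologue, rose by 0.24 (SE 0.058) and lost its call without knockout 3 (adjusted p = 0.0503). Mrpl28 rose by 0.15 (SE 0.050, adjusted p = 0.0465), the smallest called change, which held in 6 of 14 refits and was lost without any library but knockout 2.

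**Figure D3:**
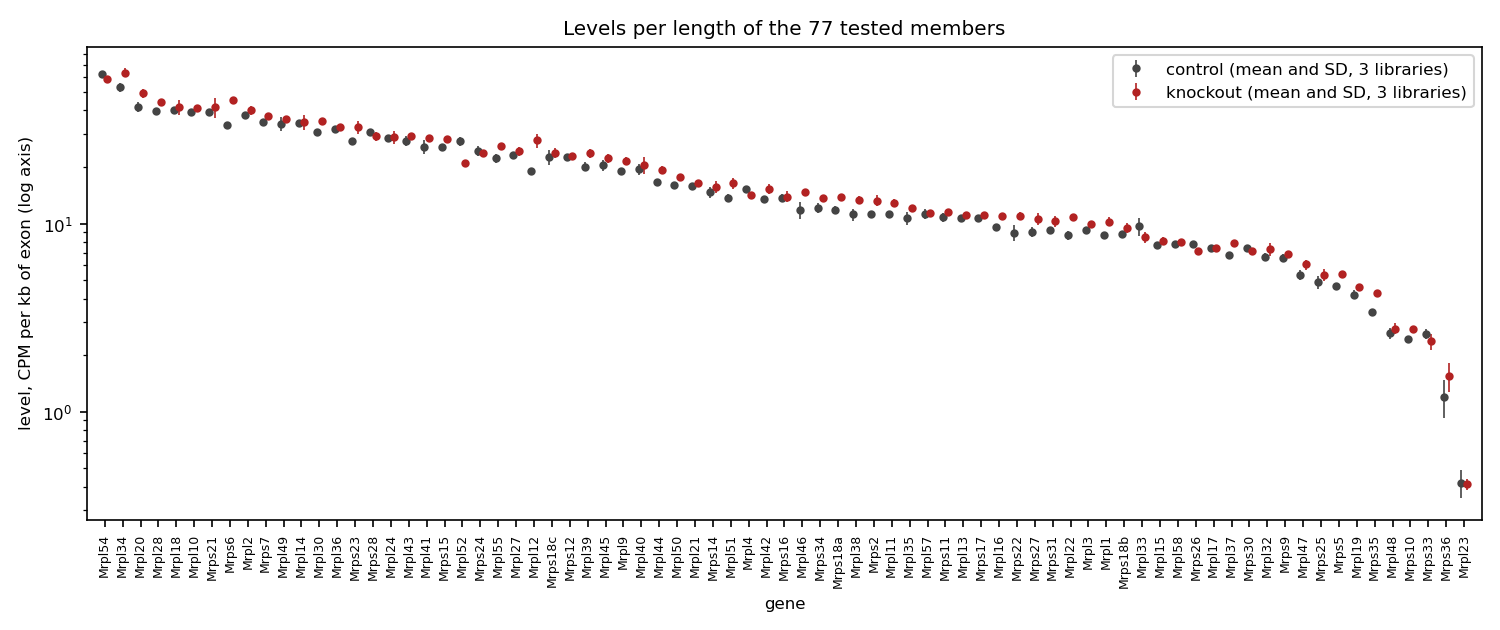
Mean level (points) and SD (lines) over 3 libraries of each group for the 77 tested members, in CPM per kb of exon on a log axis, ordered by the mean of all 6 libraries. Levels run from 60.4 for Mrpl54 to 0.416 for Mrpl23, and control and knockout points of a gene lie close together.

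At the low end 5 tested members were under 3 CPM per kb, and the lowest were Mrpl23 (0.416), Mrps36 (1.37) and Mrps33 (2.48). Mrpl23, whose protein sits at the tunnel exit, measured 1.85, 1.84 and 2.45 CPM in controls and 1.91, 1.98 and 2.17 CPM in knockout libraries, which overlapped (log2 fold change -0.015, SE 0.17). Mrps36, the dehydrogenase component, measured 1.64, 1.81 and 1.13 CPM against 1.64, 2.33 and 1.94 CPM and was not called (0.36, SE 0.20). Mrps33 measured 4.26, 4.07 and 4.60 CPM against 4.15, 3.50 and 4.18 CPM and was not called. Mrpl23, Mrps36 and Mrpl48 have annotated pseudogenes, and how reads that fit several places were counted is not given in the sources used here, so their levels are uncertain. Mrpl53 was too low to be tested: it had 5, 0 and 1 counts in controls and 1, 0 and 1 in knockout libraries. It shares 88.0% of its exonic bases on the same strand with Gm42688, which measured 1.17 and 1.25 CPM, so the level of Mrpl53 is uncertain.

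Exons were shared by other members too. Of the 78 members, 33 shared exonic bases with another gene and 17 shared more than 10% of theirs, in 13 of these with a gene on the opposite strand. Strand-aware counting would keep opposite-strand partners apart, but whether it was used is unstated. Among members called higher, Mrpl12, Mrpl46 and Mrps27 shared over 10% with an opposite-strand gene. The partner of Mrpl12, Gm16755, averaged at most 0.0468 CPM in either group. The partner of Mrpl46 is another member, Mrps11 (log2 fold change 0.087, SE 0.066, not called), and that of Mrps27 is 6430562O15Rik (2.82 against 2.12 CPM, not called).

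Members lay on 17 chromosomes, with 11 on chromosome 11 as the highest number. Of all members, 37 had a start within 1000 bases of the start of a gene pointing the other way, in 25 pairs within 200 bases. Of the 34 neighbours that were tested, 6 were called higher, 2 lower and 26 were not called, with a median log2 fold change of 0.058. Across all tested genes 11.9% were called higher and 10.5% lower, and these small counts were not tested against those shares. In 1 pair both genes were called higher, Mrpl37 (0.21, SE 0.058) with Cyb5rl (0.35, SE 0.11), starts 120 bases apart. Either gene lost its call without some libraries: Mrpl37 without control 1 or 2, and Cyb5rl without control 1, control 3, knockout 1 or knockout 3. Mrpl51 (0.26) lay 100 bases from Ncapd2, a condensin gene that was not called (-0.11, SE 0.064). Conversely, Mrpl36 was not called (0.037, SE 0.054) beside Ndufs6, a complex I gene that was called higher (0.32, SE 0.057), and Mrpl57 was not called (0.015, SE 0.062) beside Ska3, a spindle gene that was called lower (-0.40, SE 0.095). These pairs were chosen after their values were seen, and differences within pairs were not tested. Mrpl46 and Mrps11 are neighbours of each other and enter these counts in both roles.

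Summed over members, the level was 3051, 2999 and 2878 CPM in controls and 3311, 3137 and 3253 CPM in knockout libraries. The sum was thus 2976 ± 88.7 CPM in controls and 3234 ± 88.3 CPM in knockout (mean ± SD, n = 3 each), a ratio of 1.09, and the groups did not overlap. As a share of all counts the members took 0.298% ± 0.00991 and 0.322% ± 0.00857. The sums of the large subunit (2098 ± 59.9 against 2270 ± 61.1 CPM) and of the small subunit (877 ± 29.3 against 962 ± 27.7 CPM) had ratios of 1.08 and 1.10. Control 3 was the lowest control for 51 of 77 tested members and knockout 2 the lowest knockout library for 48 of 77. Without these libraries 28 members were called higher and 2 lower, Mrpl52 and Mrpl33. Of all tested genes, 13.6% were then called higher and 12.7% lower. The libraries left out are those in which most members were lowest, so this refit is not independent of the members' values. In bulk libraries, more cells of a type and more RNA per cell cannot be told apart, and the part of the higher adipocyte markers in these values was not tested.

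**Figure D4:**
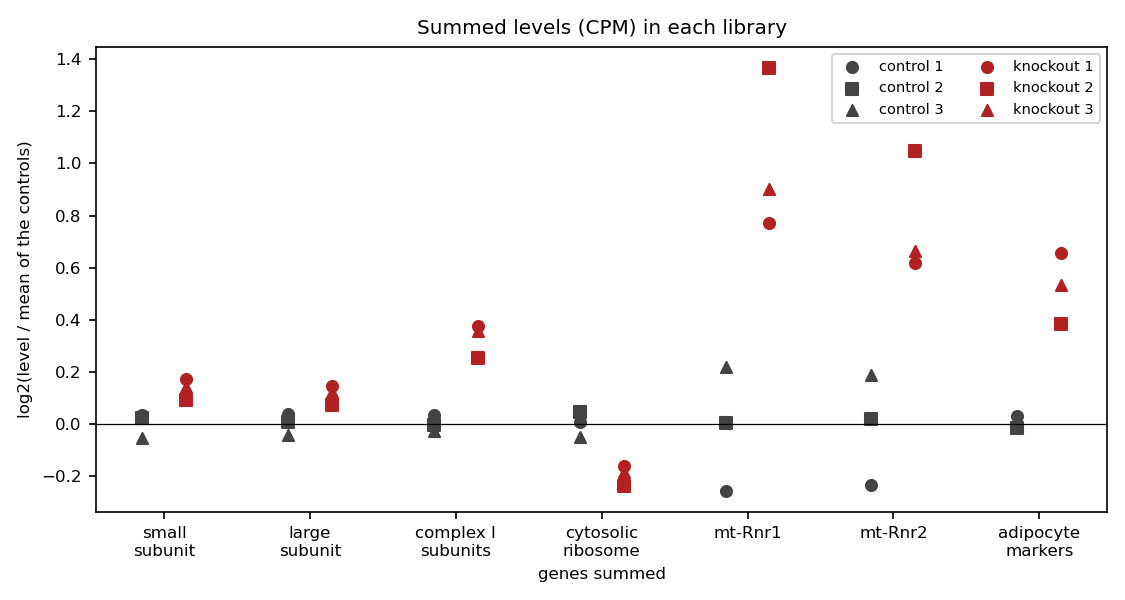
Summed level of each gene group in each library as log2 of its ratio to the mean of the controls; grey symbols are controls, red symbols knockout libraries, and the shape gives the replicate. Both subunits lie slightly above the controls in every knockout library, complex I and the adipocyte markers lie higher, the cytosolic ribosome lies lower, and mt-Rnr1 and mt-Rnr2 are highest in control 3 and knockout 2 of their groups.

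The mitochondrial ribosomal RNAs had larger fitted fold changes than any of the tested protein members. The small-subunit RNA mt-Rnr1 measured 416, 497 and 577 CPM in controls and 849, 1281 and 927 CPM in knockout libraries, and was called higher (log2 fold change 1.04, SE 0.21, adjusted p = 0.0245). The large-subunit RNA mt-Rnr2 measured 4997, 5955 and 6695 CPM in controls and 9025, 12171 and 9323 CPM in knockout libraries (0.79, SE 0.15, adjusted p = 0.0142). With no filter on low counts neither was called (adjusted p = 0.0751 and 0.0863). Neither RNA overlapped between groups, and each was highest in control 3 and knockout 2, the libraries in which most protein members were lowest. Ribosomal RNA was removed from these libraries by a depletion kit, and the part of depletion in the levels of mt-Rnr1 and mt-Rnr2 was not tested. Of the messenger RNAs that the ribosome translates, 6 of 7 tested were called higher and 0 lower, with a median log2 fold change of 0.43. Examples were mt-Nd2 (62.3 ± 3.19 against 96.9 ± 8.26 CPM, 0.64) and mt-Co1 (3570 ± 151 against 4653 ± 229 CPM, 0.38), which encode subunits of complex I and complex IV. The other 6, among them mt-Co2, mt-Atp6 and mt-Co3, were listed at 0 in every library and were not tested. Why they held no counts is not given in the sources used here and was not tested. The count and median of this list therefore cover only the 7 tested messenger RNAs, and their levels are uncertain.

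Of 5 mitochondrial ribosomal proteins whose genes carry other names, 3 were called higher and 0 lower. Ptcd3, a small-subunit protein, measured 91.7, 89.1 and 87.6 CPM in controls and 107, 96.7 and 109 CPM in knockout libraries (log2 fold change 0.22, SE 0.054, adjusted p = 0.00955). Dap3, a GTP-binding small-subunit protein, rose from 71.3, 70.1 and 72.8 CPM to 82.3, 77.5 and 80.4 CPM (0.17, SE 0.048), and Aurkaip1 rose by 0.16 (SE 0.050). Gadd45gip1 (-0.033, SE 0.060) and Chchd1 (-0.10, SE 0.080) had overlapping groups and were not called. The calls of all 3 were lost without knockout 3, which left 0 of the 5.

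Lists of genes that act with the ribosome held different shares of called genes. Of 15 mitochondrial translation factors and activators, 7 were called higher and 0 lower, with a median log2 fold change of 0.18; Tufm, the elongation factor that delivers charged tRNA, measured 5.29 ± 0.246 against 7.68 ± 0.663 CPM (0.53, SE 0.11), Gfm1, the translocation factor, 88.0 ± 1.01 against 115 ± 4.70 CPM (0.38, SE 0.048), and Taco1, an activator of mt-Co1 translation, 10.5 ± 0.664 against 13.8 ± 0.54 CPM (0.40, SE 0.083). Of 20 genes that charge mitochondrial tRNA, 4 were called higher and 0 lower (median 0.058), led by Gatb (0.28), Iars2 (0.26) and Fars2 (0.22). Of 28 genes that assemble the ribosome or modify its RNA, 1 was called higher and 0 lower (median 0.047). This gene was Mtg1, a GTPase of large-subunit assembly, at 8.48 ± 0.377 against 10.4 ± 0.519 CPM (0.30, SE 0.088). Without control 2 or control 3 or knockout 3, 4 factors were called. The call of Fars2 was lost without control 2, control 3, knockout 1 or knockout 3, and that of Mtg1 by DESeq2 and without control 1, control 2, knockout 1 or knockout 3. The charging genes called were 2 without control 2, control 3, knockout 1 or knockout 3. Without knockout 2, 4 assembly genes were called higher and 1 lower. Total count scaling, and the refit without control 3 and knockout 2, each also called 1 assembly gene lower. In the main fit the share of assembly genes called higher was 3.57%, beside 11.9% of all genes. At an unadjusted p under 0.05, edgeR had 1 assembly gene lower and 0 of the factors, charging genes and other-named proteins; DESeq2 and limma-voom called 0 lower in each of these lists.

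Complex I, which holds mitochondrially encoded and nuclear subunits, was set beside the members as a mitochondrial list. Its nuclear list was taken by symbol alone, as Ndufa, Ndufb, Ndufc, Ndufs or Ndufv followed by a number, and may differ from the subunits of the assembled complex. Of the 36 genes so listed, 33 were called higher and 0 lower, with a median log2 fold change of 0.33. Examples were Ndufa12 (0.48), Ndufb3 (0.43) and Ndufa10 (0.41). Of 83 tested cytosolic ribosomal proteins 0 were called higher and 34 lower, with a median of -0.20; the count lower was 18 without control 1 and 20 without control 2 or without knockout 3. At an unadjusted p under 0.05 there were likewise 0 complex I subunits lower and 0 cytosolic ribosomal proteins higher, and DESeq2 and limma-voom called 0. Counted by sign alone, 74 of these 83 had a fitted value below 0, against 11 of 77 mitochondrial ribosomal proteins. Over all 14 refits the median of the cytosolic list stayed between -0.21 and -0.17 and that of complex I between 0.31 and 0.38. The lists were not tested against each other. Mean levels in controls ran from 0.339 to 783 CPM over the tested cytosolic ribosomal proteins. How reads that fit several places were counted is not given in the sources used here, so the levels of this list are uncertain.

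**Figure D5:**
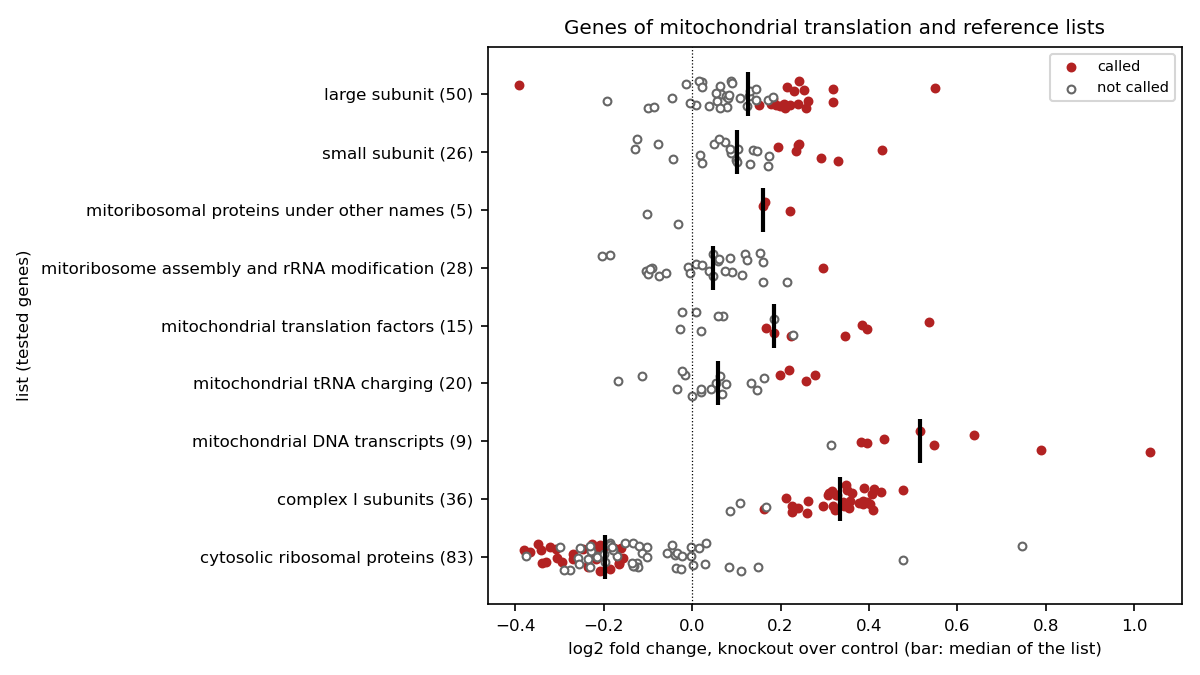
Log2 fold change of each tested gene (points; red if called at an edgeR adjusted p under 0.05) in the mitochondrial ribosome subunits and in related lists, with the median of each list as a bar and the number of tested genes in brackets. The medians run from -0.20 for cytosolic ribosomal proteins over 0.13 and 0.10 for the large and small subunits to 0.33 for complex I and 0.52 for mitochondrial DNA transcripts.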

How the data were processed

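Transcripts were measured by RNA-seq of total RNA depleted of ribosomal RNA (TruSeq Stranded Total RNA with Ribo-Zero Gold, per the labels' protocols) in 3 control and 3 knockout libraries. The deposited table holds raw read counts per Ensembl gene; GRCm38, featureCounts 1.5.1, STAR 2.5.2b and DESeq2 1.16.0 are listed, without roles, per the submitters' processing notes. Not given in the sources used here: annotation release, strand setting, treatment of multiply mapping reads. Symbols were matched by Ensembl identifier (49326 of 49671), and gene positions and exon lengths come from GENCODE M21 on GRCm38. Promoters come from RefSeq, GRCm38.p6.

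Groups were compared in R 4.3.3 by the quasi-likelihood F-test of edgeR 4.0.16 (robust dispersions, TMM scaling, filterByExpr, group as the only term). P-values were adjusted by Benjamini-Hochberg over 14946 tested genes, and genes were called under 0.05. The SE of a log2 fold change is its size over the square root of F. The script was tested on simulated data.

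The members and all lists were chosen with earlier results of these data known. Named were the 10 largest called rises and falls without overlap between groups (1 fall qualified), the 5 highest and 3 lowest tested members per length, the 3 most abundant not called, untested members, the Mrps18 family, Mrps30, Mrps36, other-named proteins, the ribosomal RNAs and up to 3 called genes per related list; no single gene of the cytosolic ribosomal list is named. Mrpl11, Mrpl33, Slc5a3, mt-Nd2, mt-Co1 and the neighbours named were added after their values were seen. Alternatives were 3 other scalings, 2 other filters, DESeq2 1.42.0, limma-voom (limma 3.58.1), an adjusted p under 0.01, leaving out each library or control 3 with knockout 2, longest-transcript lengths, and 100-base promoters.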

Additional observations from a re-analysis of the deposited data

How the results depend on the processing

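The median log2 fold change of the members stayed between 0.088 and 0.15 over all refits, and no member called with all libraries changed sign, whereas some members not called did: the number fitted above 0 ranged from 62 to 68. With 1 library left out, the genes called over the whole table ranged from 2145 to 3475 (3346 with all libraries), the members called higher from 11 to 29, those called lower from 1 to 2, large-subunit members called higher from 8 to 22 and small-subunit members from 3 to 7. At an adjusted p under 0.01, 1934 of 14946 tested genes were called, higher and lower together. Of the members, 8 were then called higher, 5 of the large and 3 of the small subunit. The share of all tested genes called higher at this threshold is not given here, so the 8 members cannot be read against it. Called lower were 2 members with no filter on low counts and 2 without control 3 and knockout 2, in each case Mrpl52 and Mrpl33; the cause was not tested. The 3 other scalings called 23 to 26 members higher, DESeq2 19 and limma-voom 24. Of all tested genes, the scalings called 11.4% to 12.2% higher, DESeq2 10.5% and limma-voom 11.7%. With 1 library left out, the share of all tested genes called higher ran from 8.07% to 12.1%. With lengths of the longest transcript the median level was 17.7 CPM per kb in place of 13.9, and 3 of the 5 highest members were shared. Mrpl20 was then the highest (93.42 CPM per kb), above Mrpl54 (82.45). In the 100 bases before the start the NRF1, ETS and YY1 cores were in 13.3%, 20% and 1.33% of member windows. The shares of all windows were then 3.455%, 4.52% and 0.234%, and those of protein-coding windows 4.79%, 5.99% and 0.296%. No paired analysis was possible because the labels number the libraries from 1 to 6 across both groups, and the replicate numbers used here only name libraries.

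With 3 libraries a group and a median SE of 0.062, changes much smaller than those called could not be detected. The arms left with 2 libraries were fitted with the spread pooled over groups.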
